A study of Mus musculus with 12 samples.

Results

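Bdh1, Acat1 and Slc16a6 are 3 genes of ketone body metabolism, and the regions described here are all those whose nearest gene in the authors' annotation is one of them. That name was the only criterion. It took in 18 of 52530 regions of open chromatin (peaks, each listed as 200 bp): 6 for Bdh1, 9 for Acat1 and 3 for Slc16a6. Accessibility was measured by ATAC-seq, an assay in which a transposase inserts adapters where DNA is open, on hepatocyte nuclei isolated from liver by INTACT, a method that captures the genetically tagged nuclei of a chosen cell type on beads. All 6 mice were female HEP-INTACT animals, of an age and with a promoter driving the nuclear tag not given in the sources used here. The 3 fasted mice had no food for 16 h from ZT12, when mice become active, and the 3 fed mice ate ad libitum and were killed at the matching time of day. Each mouse contributed a library from fresh liver and a library from frozen liver, giving 4 groups of 3 libraries (fed fresh, fasted fresh, fed frozen and fasted frozen).

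In fasting, hepatocytes break down fatty acids in their mitochondria and turn part of the resulting acetyl-CoA into acetoacetate and beta-hydroxybutyrate, which other organs burn as fuel. Acat1 encodes the mitochondrial acetoacetyl-CoA thiolase, which joins or splits acetyl-CoA units and also serves isoleucine breakdown. Bdh1 encodes the mitochondrial dehydrogenase that interconverts acetoacetate and beta-hydroxybutyrate, and Slc16a6 a membrane protein of the monocarboxylate transporter family that has been described as an exporter of beta-hydroxybutyrate from the liver of zebrafish. Open chromatin at a gene is a measure of DNA access and not of its transcript.

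Of the start-site peaks, the one at Bdh1 lay in a promoter for which RefSeq sequence was at hand (build GRCm38.p6, the same coordinates as mm10). It is shown because no such sequence was at hand for Acat1 or Slc16a6. This peak's fasting call was the closest of all 18 to the threshold. The stretch covers the peak's 194 bases upstream of the annotated start, on the plus strand at chr16:31422103-31422296, with the 2 matches to GGTCA in capitals.
Bdh1 promoter: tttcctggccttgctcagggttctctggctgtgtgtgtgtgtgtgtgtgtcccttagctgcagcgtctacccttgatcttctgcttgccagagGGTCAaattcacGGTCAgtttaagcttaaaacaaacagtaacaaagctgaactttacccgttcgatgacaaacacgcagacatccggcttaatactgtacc
GGTCA is the end of AGGTCA, the half-site word of many nuclear receptors. Both matches were on the plus strand, 101 and 89 bases upstream of the start, and 28.7% of 32851 promoters held this word in the matching window on either strand. AGGTCA itself was not in this window (11.0% of promoters held it). The same was so of TGACGTCA (1.46%), TGACG (15.4%), TGTTTAC (2.40%), TGTTTGC (3.26%), TTNCNNAA (29.1%), TTCNNNGAA (5.29%), CCAAT (28.8%), GGGCGG (30.8%), TGAGTCA (3.54%) and CACGTG (5.13%). Of 2 gapped repeats searched with up to 2 letters off, neither matched: the direct repeat of AGGTCA with a gap of 1 base (2.47% of promoters) and the inverted repeat of AGAACA with a gap of 3 (1.15%). The stretch had a GC content of 47.9% (median of all promoters 53.1%) and 6 CpG sites (median 5).

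Values are normalized reads per peak, that is, reads divided by the authors' size factor for each library. The libraries held 3692152 to 14506057 reads in peaks, and the 18 peaks 14 to 510 reads each per library, which at the lowest is a counting error of 26.7%. Mean levels over all libraries ran from 50.4 to 306 normalized reads, against a median of 114 for all peaks. For fasting, the fresh and frozen values of each mouse were averaged as log2(value + 1) and 3 fasted mice were compared with 3 fed mice by limma; a peak is called where the p adjusted over all 52530 peaks is under 0.05. In a pool of nuclei, more open nuclei and more cuts per open nucleus cannot be told apart. Hepatocyte identity was read from start-site peaks: 5 of 6 hepatocyte markers had one, against 0 of 5 for endothelium, 0 of 5 for macrophages, 1 of 5 for stellate cells (Reln) and 1 of 5 for bile duct cells (Sox9). The summed level of the 5 hepatocyte peaks was 1155 to 1188 in fed and 1291 to 1440 in fasted fresh libraries, and 1475 to 1537 in fed and 1708 to 2070 in fasted frozen ones. Apoa1 and Serpina1a among them were called higher in fasting, and neither Reln nor Sox9 was called; the part of this shift in the results was not tested.

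In fasted mice 13 of the 18 peaks were more accessible and none was less accessible: 7 of 9 at Acat1, 3 of 6 at Bdh1 and 3 of 3 at Slc16a6. Among all peaks 16.5% were called higher and 18.1% lower. All 18 log2 differences were above 0, against 56.6% of all peaks, and their median was 0.46, against 0.05 for all peaks. Near peaks (at most 1 kb from a gene start) and far peaks have different backgrounds: 3 of 4 near peaks of these genes were called higher (19.7% of all near peaks) and 10 of 14 far ones (14.8% of all far peaks). The 13 calls fell to 8 without the fed mouse of letter A, or without the fasted mouse of letter A. Over all peaks the 8678 higher calls fell to 5435 and 4939. The 13 also fell to 8 when libraries were scaled to equal medians over near peaks, where 7.72% of all peaks were called higher. That scaling lowers the log2 difference of all peaks by a median of 0.12 and leaves 17 of 18 above 0, the exception being the Bdh1 peak 7213 bp upstream.

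**Figure D1:**
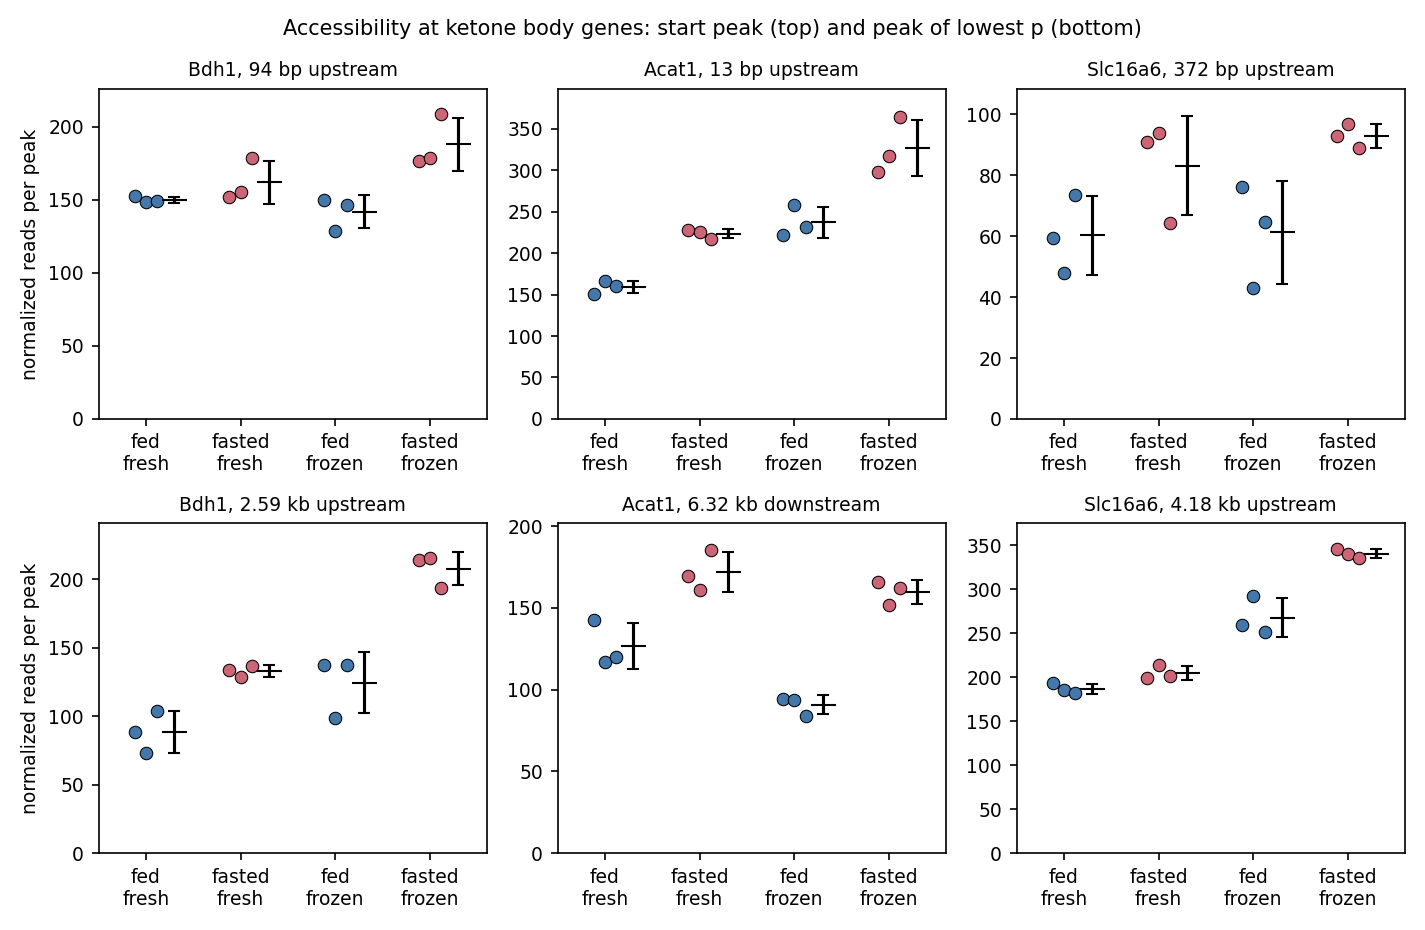
Normalized reads per peak in each library (points, in the order A, B, C) with the group mean and SD (bars, n = 3), for the peak nearest to each gene start (top) and the peak of lowest p in the fasting comparison (bottom). At the Acat1 start the fed fresh libraries lie at 151 to 166 and the fasted fresh ones at 217 to 228, while at the Bdh1 start the fresh groups overlap.

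Acat1, the thiolase gene, held 7 of the 13 calls, at its start, along its first intron and upstream. The start peak lay 13 bp upstream (chr9:53610263-53610463). It held 151, 166 and 161 normalized reads in the fed fresh libraries and 228, 226 and 217 in the fasted fresh ones. In frozen liver it held 222, 258 and 232 in fed and 298, 317 and 365 in fasted libraries. Every fasted library was above every fed library of the same preparation, while fasted fresh and fed frozen libraries overlapped. Per mouse the level rose from 198 ± 13.0 (SD, n = 3) to 275 ± 14.2 normalized reads, a log2 difference of 0.47 ± 0.07 (SE) or 38.8% (adjusted p = 0.0012).

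Deeper in the gene, 5 peaks of intron 1 were called, and these were the 5 of the 18 at which all 6 fasted libraries exceeded all 6 fed libraries (5.16% of all peaks did). The peak 6320 bp downstream of the start (chr9:53603930-53604130) had the lowest p of the gene. Its fed fresh libraries held 143, 117 and 120 normalized reads and its fasted fresh ones 170, 161 and 185. In frozen liver the fed libraries held 94.1, 94.0 and 84.1 and the fasted ones 166, 152 and 162. Fed frozen libraries were the lowest of the 4 groups, and both fasted groups overlapped. Per mouse it rose from 109 ± 8.64 to 166 ± 8.89, a log2 difference of 0.63 ± 0.09 or 54.4% (adjusted p = 0.0011).

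The largest difference among the 18 was 3061 bp downstream of the Acat1 start (chr9:53607189-53607389), in a B1 SINE repeat. Fed fresh libraries held 39.9, 42.5 and 58.5 and fasted fresh ones 77.4, 98.2 and 103. In frozen liver the fed libraries held 36.9, 22.3 and 47.3 and the fasted ones 75.5, 100 and 89.0. Per mouse the level was 41.2 ± 10.5 in fed and 90.5 ± 12.3 in fasted mice, a rise of 2.23-fold (log2 difference 1.16 ± 0.20, adjusted p = 0.0025). The neighbouring peak at 2919 bp shares 58 bp with it, so the pair share reads, and it rose from 54.2 to 95.5 (0.84 ± 0.14). The peak at 5093 bp, in an RMER1B repeat, rose from 34.9 to 65.9 (0.87 ± 0.20) and the peak at 8596 bp from 145 to 201 (0.49 ± 0.07). How reads that match several copies of a repeat were treated is not given in the sources used here.

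Other peaks named for Acat1 differed less or fell short of a call. At 287 bp downstream the log2 difference was 0.46 ± 0.16 (adjusted p = 0.0523). In intron 3, 15351 bp downstream and within a B3 SINE, it was 0.32 ± 0.15 (adjusted p = 0.121). The peak 4169 bp upstream of Acat1 lies at the transcript end of Cul5, a ubiquitin ligase scaffold gene, and went from 52.9 to 71.9 (0.44 ± 0.13, adjusted p = 0.0304). That last call was lost when any of the 6 mice was left out (adjusted p 0.0514 to 0.0834) and under scaling to near peaks (0.109).

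At Bdh1, the dehydrogenase gene, 2 upstream peaks passed the test by a wide margin and the start peak barely. The peak of lowest p was intergenic, 2591 bp upstream (chr16:31419606-31419806). It held 88.7, 73.0 and 104 normalized reads in fed fresh and 134, 128 and 137 in fasted fresh libraries. In frozen liver it held 137, 98.8 and 138 in fed and 214, 215 and 194 in fasted libraries. Within each preparation no fed library reached a fasted one. Per mouse it rose from 106 ± 18.3 to 170 ± 4.51, a log2 difference of 0.67 ± 0.12 or 59.3% (adjusted p = 0.0031).

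The Bdh1 start peak, 94 bp upstream (chr16:31422103-31422303), contains the sequence printed above. Its fed fresh libraries held 153, 149 and 149 normalized reads and its fasted fresh ones 152, 155 and 179, so these groups overlapped. In frozen liver the fed libraries held 150, 129 and 146 and the fasted ones 177, 179 and 209, with no overlap. Per mouse the level went from 146 ± 6.44 to 175 ± 16.4 (log2 difference 0.25 ± 0.09, adjusted p = 0.0497). The call was lost when any mouse was left out (adjusted p 0.0567 to 0.145), without the lowest 25% of peaks (0.0538), under quantile normalization (0.0762) and under scaling to near peaks (0.294). No peak overlapped the promoter of a second annotated Bdh1 start, at position 31428753 of chromosome 16.

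The 4 other Bdh1 peaks stretch up to 23012 bp upstream, all intergenic. The farthest one, in an L2c repeat (chr16:31399185-31399385), rose from 113 ± 9.66 to 165 ± 21.7 per mouse (log2 difference 0.54 ± 0.11, adjusted p = 0.0061). Its neighbour 2 bp away, 22810 bp upstream, was the most accessible of the 18 at 306 normalized reads on average, and its log2 difference was 0.19 ± 0.08 (adjusted p = 0.0855). At 9851 and 7213 bp upstream the log2 differences were 0.17 ± 0.06 and 0.05 ± 0.14 (adjusted p = 0.061 and 0.809).

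All 3 peaks of Slc16a6, the transporter gene, were called higher in fasting, and none of these calls held in every alternative analysis. The start peak lay 372 bp upstream (chr11:109473868-109474068). Like the other peaks of this gene, it lies inside the annotated span of the neighbouring gene Arsg, described below, and which gene it serves was not tested. It held 59.5, 47.8 and 73.6 normalized reads in fed fresh and 90.9, 94.0 and 64.4 in fasted fresh libraries. In frozen liver it held 76.2, 43.0 and 64.8 in fed and 92.8, 96.8 and 89.0 in fasted libraries. The fresh groups overlapped through 1 library each, and the frozen groups did not overlap. Per mouse the level went from 60.8 ± 13.4 to 88.0 ± 9.93, a log2 difference of 0.54 ± 0.18 or 45.7% (adjusted p = 0.0413). The call was lost without the fed mouse A or B or the fasted mouse A or B (adjusted p 0.0562 to 0.121).

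The Slc16a6 peak of lowest p lay 4185 bp upstream (chr11:109477681-109477881), within intron 1 of Arsg, an arylsulfatase gene whose first bases overlap those of Slc16a6 by 266 bp. It held 193, 186 and 182 in fed fresh and 200, 215 and 201 in fasted fresh libraries. In frozen liver it held 260, 293 and 251 in fed and 346, 340 and 336 in fasted libraries. Groups did not overlap within either preparation, with the fresh ones close together. Per mouse it went from 228 ± 11.4 to 273 ± 4.33 (log2 difference 0.24 ± 0.06, adjusted p = 0.0172), and the call was lost without the fed mouse A or C or the fasted mouse A (adjusted p 0.0516 to 0.058). The other Arsg intron peak, 4625 bp upstream of Slc16a6, went from 95.6 ± 0.64 to 119 ± 11.5 (0.32 ± 0.10, adjusted p = 0.0399). It was called with all mice and without the fasted mouse C, and was not called when any other mouse was left out (adjusted p 0.0841 to 0.158). Scaled to near peaks, none of the 3 was called (adjusted p 0.0939 to 0.252), and without the lowest 25% of peaks the last had an adjusted p of 0.0506.

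Fasting was then compared within each preparation, by limma over all 12 libraries. This fit took the spread from all of them with no mouse term, although fresh and frozen libraries of a mouse are not independent. In fresh liver 9 of the 18 peaks were called higher (9.39% of all peaks) and in frozen liver 13 (17.3% of all peaks). Both preparations called 8, frozen alone 5, fresh alone 1 and neither 4. In fresh liver the count fell to 5 without the fed mouse A or B, while over all peaks it fell from 4935 to 3039 and 2639. Quantile normalization turned the order of the backgrounds: it called 12 of the 18 in fresh liver, with 8827 of all peaks called higher, and 13 of the 18 in frozen liver, with 7175. So did edgeR with TMM scaling, which called 10 of the 18 in fresh liver, with 8016 of all peaks, and 12 in frozen liver, with 6910. At the Bdh1 start the log2 difference was 0.10 ± 0.10 in fresh and 0.40 ± 0.10 in frozen liver (adjusted p = 0.491 and 0.0066), and at the Acat1 start 0.49 ± 0.09 and 0.46 ± 0.09. Within both preparations, 11 of the 18 peaks had all fasted libraries above all fed ones (13.8% of all peaks). In the authors' deposited table, adjusted p was under 0.05 for 8 of the 18 in fresh liver and for 13 in frozen, and all 18 fold changes were above 0 in each. By the same deposited values, 8.93% of all peaks were higher in fresh liver and 13.5% in frozen liver.

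The difference in fasting response between the preparations was itself tested as an interaction. By limma none of the 18 passed (lowest adjusted p = 0.810), and edgeR called none either. Of all peaks 0% were called. The unadjusted limma p was under 0.05 at 3 of the 18 and at 2702 of all 52530 peaks. Those 3 were the Acat1 intron 1 peaks at 2919, 6320 and 8596 bp, where the response was larger in frozen liver by 0.60 ± 0.23, 0.37 ± 0.15 and 0.38 ± 0.12 on the log2 scale. The median interaction of the 18 was 0.16 (0.00 for all peaks). Under quantile normalization it was -0.01 (-0.02 for all peaks), with 1 of the 18 under an unadjusted p of 0.05. With edgeR and TMM scaling it was 0.08 (-0.07 for all peaks), with 2 of the 18 under 0.05. With the mouse as a block, none of the 18 was called (lowest adjusted p = 0.137), while over all peaks 187 were called larger and 208 smaller in frozen liver.

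**Figure D2:**
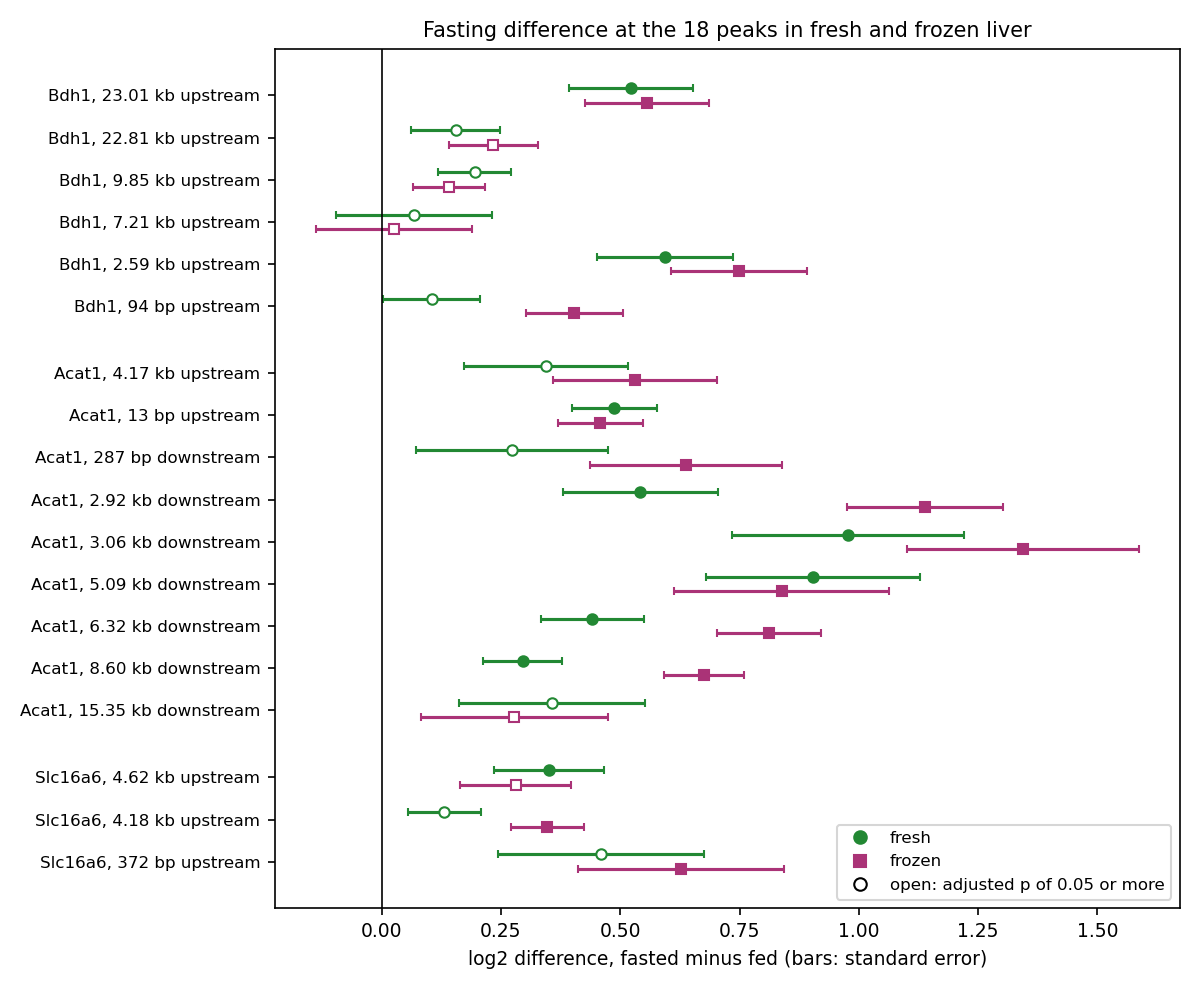
Log2 difference between fasted and fed mice (x axis) at each of the 18 peaks (rows) in fresh (circles) and frozen liver (squares), with standard errors; open symbols have an adjusted p of 0.05 or more. The symbols lie to the right of 0 at all 18 peaks, with 9 filled in fresh and 13 in frozen liver.

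Freezing of the tissue went with changes in both directions. In frozen compared with fresh liver, with feeding state as covariate, 8 of the 18 peaks were higher (28.7% of all peaks) and 5 lower (32.8% of all peaks). The higher ones were 5 of 6 Bdh1 peaks, the Acat1 start and both Arsg intron peaks named for Slc16a6. All 5 lower ones belonged to Acat1, at 8596, 6320, 5093 and 2919 bp downstream and 4169 bp upstream. Thus at Acat1 the start rose by 0.56 ± 0.06 on the log2 scale while the intron peak at 6320 bp fell by 0.29 ± 0.09. All 6 frozen libraries lay above all 6 fresh ones at the Bdh1 peak 9851 bp upstream and the Slc16a6 peak 4185 bp upstream (15.2% of all peaks), where the log2 differences were 0.31 ± 0.05 and 0.62 ± 0.06. At none of the 18 did all frozen libraries lie below all fresh ones (11.7% of all peaks). Over all peaks the median freezing difference was 0.06 near gene starts and -0.11 beyond 1 kb. The 5 lower calls came to 1 without the fed mouse A or B, 2 without the fed mouse C and 3 without the fasted mouse B or C, and to 2 under quantile normalization. Over all peaks the 17223 lower calls became 15722, 15919 and 15612 without the fed mouse A, B and C. They became 16302 and 17503 without the fasted mouse B and C, and 15469 under quantile normalization.

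**Figure D3:**
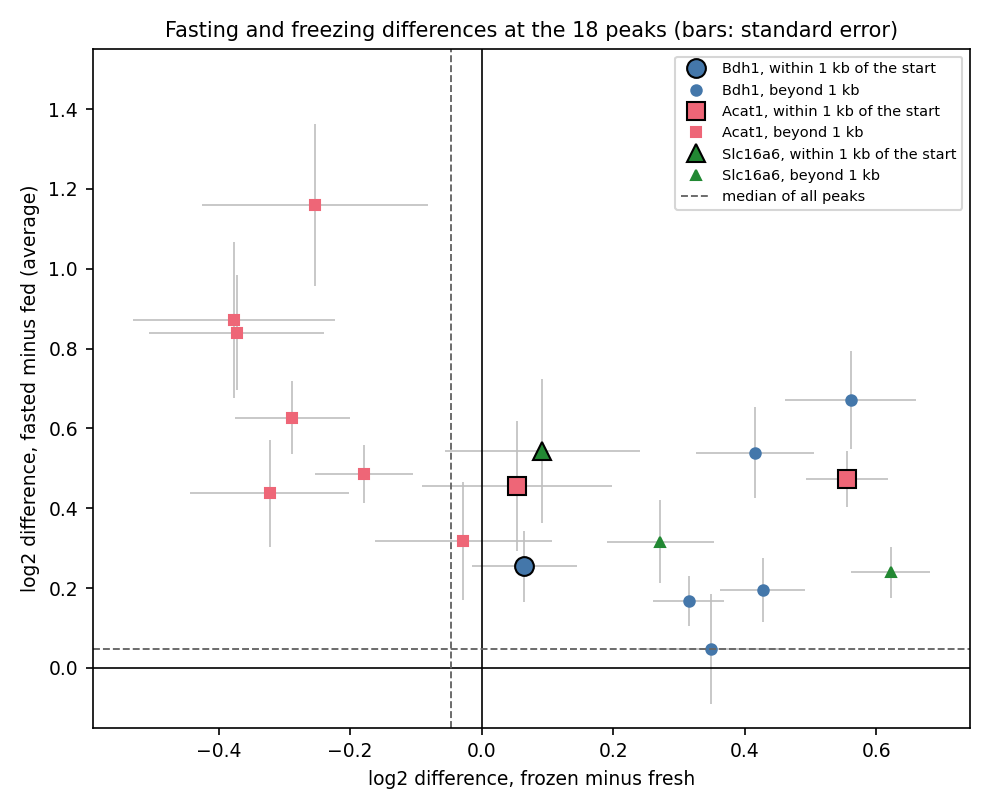
Log2 difference between frozen and fresh liver (x axis) against that between fasted and fed mice (y axis) for the 18 peaks, with standard errors; dashed lines mark the medians of all peaks, -0.05 and 0.05. Points lie above 0 on the y axis at all 18 peaks, with 7 Acat1 peaks left of 0 and the 6 Bdh1 peaks right of 0 on the x axis.

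Nearest-gene names leave out peaks inside or near the genes that carry another name. Within the gene bodies and 25 kb around them lay 27 peaks, 9 for each gene, of which 14 were called higher and 1 lower in fasting (16.5% and 18.1% of all peaks). The lower one sits in intron 4 of Bdh1 (chr16:31448648-31448848) but is named for the noncoding RNA gene Gm15743. Its fed fresh libraries held 96.7, 75.7 and 88.7 normalized reads and its fasted fresh ones 50.2, 61.3 and 37.3. In frozen liver it held 61.9, 60.5 and 37.7 in fed and 37.3, 25.3 and 26.7 in fasted libraries. Fasted libraries were below fed ones within each preparation. Per mouse it fell from 70.2 ± 8.28 to 39.7 ± 6.66, a log2 difference of -0.81 ± 0.18 (adjusted p = 0.0080). The additional higher one was an Arsg start peak (chr11:109494990-109495190, 0.29 ± 0.08, adjusted p = 0.0257), and it was not called when scaled to near peaks (0.16, adjusted p = 0.139).

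Other genes of ketone body metabolism and transport were counted from a list of 13, of which 9 had peaks. Of their 60 peaks 14 were called higher and 15 lower in fasting (16.5% and 18.1% of all peaks), with a median log2 difference of -0.01. Aacs, the cytosolic ligase that activates acetoacetate for lipid synthesis, had 12 peaks, with 7 lower, 1 higher and a median of -0.58, while its start peak was at 266 normalized reads in fed and 265 in fasted mice (0.01 ± 0.06). Slc16a1, a monocarboxylate transporter gene, had 3 higher and 2 lower of 12, and its start peak rose from 213 ± 12.2 to 254 ± 10.9 (0.26 ± 0.07, adjusted p = 0.0181). Slc16a7, of the same family, had 5 higher and 1 lower of 15, with 0.26 ± 0.10 at the start (adjusted p = 0.0733). Bdh2, a cytosolic dehydrogenase gene, had 0 higher and 1 lower of 3, with 0.00 ± 0.13 at the start. Bsg, whose product escorts monocarboxylate transporters to the cell surface, had 4 higher and 1 lower of 5, with a median of 0.43, and its start peak rose from 448 ± 23.2 to 505 ± 34.8 (0.20 ± 0.07, adjusted p = 0.0405). Hcar2, a receptor gene for beta-hydroxybutyrate, had 0 higher and 3 lower of 5, with a median of -0.30. Its peak nearest to the start, 2.72 kb away, went the other way without a call, from 53.5 ± 4.54 to 65.0 ± 6.07 (0.31 ± 0.15, adjusted p = 0.137).

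The pattern of each start peak across the 12 libraries was compared with 18533 other near peaks by Pearson's r of the log2 values, as a description, since all libraries share the feeding and freezing contrasts. The Bdh1 start peak was most like those of Decr1 (r = 0.973), Idh3g (0.950) and Ppip5k2 (0.945). The Acat1 start was most like those of Bmi1 (0.981), Sephs1 (0.977) and Fam53c (0.977), and that of Slc16a6 like Nfkb1 (0.941), Tmem230 (0.921) and Wnt5b (0.920). Over 0.9 were 713 peaks for Acat1, 30 for Bdh1 and 7 for Slc16a6. Between peaks of the same gene the median r was 0.72 for both Acat1 and Bdh1 and 0.66 for Slc16a6. Between genes it was 0.65 for Bdh1 with Slc16a6, 0.39 for Bdh1 with Acat1 and 0.34 for Acat1 with Slc16a6. With group means removed, the 6 medians ran from -0.23 to 0.24.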

How the data were processed

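Tagged hepatocyte nuclei of 6 mice gave 12 ATAC-seq libraries. Build mm10 and the tools HOMER, SAMtools, DESeq2 and BWA (0.7.5a-r405) are listed, without their roles, per the submitters' processing notes. The deposited table of merged peaks has signal columns that are, per the file headers, normalized reads per library. Values in each column were whole multiples of 1 step (100% within 1e-06), as reads divided by a size factor are; reads are counted with the step as 1 read, which the smallest value shows in 4 of 12 columns. The authors also deposited log2 fold changes, adjusted p-values and a peak score; the score was not used. The peak caller and read filters: not given in the sources used here. No column of per-library values was left unused.

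Column letters A to C match no mouse number in the labels. Same-letter fresh and frozen columns deviated from their group means together (r 0.329 to 0.640 in 6 pairs, highest other r 0.0213, threshold 0.1), so letters were taken as mice; no label states this pairing. Values were fitted as log2(value + 1), unfiltered, in R 4.3.3 by limma 3.58.1 (two-sided, with a trended prior and Benjamini-Hochberg adjustment over all peaks). Alternatives used edgeR 4.0.16 with TMM or DESeq2 1.42.0 size factors, fitted over all libraries with no mouse term. The code was tested on simulated data, in which all libraries were drawn independently. That test therefore does not cover the likeness between libraries of a mouse. Counting errors cover counting only, since PCR copies are not independent molecules. Promoter sequence came from RefSeq, whose table held Bdh1 among the 3 genes.

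Peaks given per library are the one nearest each start and the one of lowest p per gene; the Acat1 peak of largest difference, the lower Bdh1 intron peak, the 6 named genes of the wider list and the overlap within both preparations were chosen after values were seen. Some genes of the wider list are not reported here and enter none of its counts. The members and lists were chosen with earlier results of these data known.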

Additional observations from a re-analysis of the deposited data

How the results depend on the processing

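None of the 18 peaks named for the 3 genes was called lower in fasting under any alternative, and 8 were called higher under each alternative that tested them: the Bdh1 peaks 23012 and 2591 bp upstream, the Acat1 start and the 5 intron 1 peaks at 2919 to 8596 bp. How many of all peaks were called under every alternative was not counted, so these 8 have no background share. The main count of 13 higher in fasting became 8 (of 13 tested) without the lowest 25% of peaks, 8 scaled to near peaks, 8 to 11 with a mouse left out, 14 with pseudocount 8 or quantile normalization, 16 with no replicate block, 15 with a random replicate block and 17 with edgeR under either scaling. The edgeR fits, like the fit with no replicate block, had no mouse term. Both libraries of a mouse thus counted as separate replicates in them. The 9 of fresh liver became 5 to 7 with a mouse left out and 12 under quantile normalization. Over all peaks the 4935 higher calls of fresh liver became 8827 under quantile normalization, 8016 with edgeR and TMM, 2414 scaled to near peaks, and 3039, 2639 and 2280 without the fed mouse A, the fed mouse B and the fasted mouse A; the 9076 of frozen liver became 4629 scaled to near peaks. The 5 lower after freezing became 3 (of 13 tested) without the lowest 25% of peaks, 2 under quantile normalization and 1 to 5 with a mouse left out. Over all peaks the 17223 lower after freezing became 10716 (of 39397 tested), 15469 and 15541 to 17503 in the same alternatives. With the mouse as a replicate block freezing called 8 higher and 5 lower, as without it. Over all peaks the higher calls in fasting numbered 8678 (9485 lower), but 4056 (12857 lower) scaled to near peaks and 13222 without the block. They numbered 13220 and 13032 with edgeR under TMM and DESeq2 size factors. Without the fed mouse A, the fed mouse B and the fasted mouse A they numbered 5435, 5023 and 4939.

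Differences that changed sign were small and uncalled but for 1. For fasting, the Bdh1 peak 7213 bp upstream came to -0.077 scaled to near peaks, -0.034 without the fed mouse B and -0.064 without the fasted mouse B (-0.064 to 0.16 over the mice left out). For freezing, the Bdh1 start came to -0.0073 scaled to near peaks and -0.0040 under quantile normalization, and the Acat1 peak 287 bp downstream to -0.018 scaled to near peaks and -0.0086 without the fasted mouse A (-0.0086 to 0.19 over the mice left out). The Acat1 peak 15351 bp downstream came to 0.40 under quantile normalization (adjusted p = 0.0482), 0.013 without the fed mouse B, 0.081 without the fasted mouse C (-0.094 to 0.081 over the mice left out), and 0.0051 and 0.017 with edgeR under TMM and DESeq2 size factors. The cause was not tested. Counts as low as 14 reads limit what single libraries show.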
